A study of Mus musculus with 6 samples.

Results

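10 genes that mark the Merkel cell fate were followed in newborn mouse epidermis labelled as lacking both ubiquitin ligases of Polycomb repressive complex 1 (PRC1): the transcription factors Atoh1, Sox2, Isl1, Gfi1 and Insm1, the keratins Krt8, Krt18 and Krt20, the mechanically gated ion channel Piezo2 and the vesicle GTPase Rab3c. They were chosen by gene symbol as genes known from Merkel cells, with earlier results of these data known, and all 10 of them are among the 24453 symbols with counts. The libraries came from back skin of mice at postnatal day 0, and the sort took EpCAM(+) Sca1(+) cells whose α6-integrin was high, a gate that enriches for progenitors of the interfollicular epidermis. 3 libraries carried the genotype label Ring1a-/- Ring1b-/- (K1, K2 and K3), and 3 carried the label Control (C1, C2 and C3). PRC1 carries 1 of 2 ubiquitin ligases, Ring1a, encoded by Ring1, or Ring1b, encoded by Rnf2. The alleles of the controls, the driver of the deletion and whether each library is 1 animal are not given in the sources used here. The p-values therefore reflect the scatter of these libraries alone, part of which may be technical.

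Merkel cells are touch receptor cells that arise from epidermal progenitors and sit in the basal layer against sensory nerve endings. Their formation depends on Atoh1, a basic helix-loop-helix factor, while Sox2, an HMG-box factor, and Isl1, a LIM homeodomain factor, act with it in the mouse lineage. The finished cell holds the simple keratins 8, 18 and 20, dense-core vesicles and Piezo2. Polycomb complexes hold genes of other lineages silent in epidermal progenitors, and in mammals they occupy mainly promoters that are rich in CpG dinucleotides.

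The promoters of 5 members are shown because they set the called transcription factors and keratin beside a close partner of each that was not called. Sox2, Isl1 and Krt18 were counted mainly in the knockout-labelled libraries, whereas Krt8, the neighbour and filament partner of Krt18, and Atoh1 did not enter the test. Each line runs 5′ to 3′ on the strand of the gene, over a window of 300 bases that lies mostly upstream of its RefSeq start (GRCm38.p6), with the C and G of each CpG in capitals. The windows are chr3:34649745-34650044 on the plus strand for Sox2, chr13:116309639-116309938 on the minus strand for Isl1, chr15:102027966-102028265 on the plus strand for Krt18, chr15:102004293-102004592 on the minus strand for Krt8 and chr6:64728875-64729174 on the plus strand for Atoh1.
Sox2: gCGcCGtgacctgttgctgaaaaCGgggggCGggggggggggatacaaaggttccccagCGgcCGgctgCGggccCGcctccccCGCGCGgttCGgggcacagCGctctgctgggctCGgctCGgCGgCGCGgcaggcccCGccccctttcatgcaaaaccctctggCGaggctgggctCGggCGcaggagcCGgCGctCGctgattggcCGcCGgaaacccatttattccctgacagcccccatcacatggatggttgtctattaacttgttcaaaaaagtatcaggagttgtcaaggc
Isl1: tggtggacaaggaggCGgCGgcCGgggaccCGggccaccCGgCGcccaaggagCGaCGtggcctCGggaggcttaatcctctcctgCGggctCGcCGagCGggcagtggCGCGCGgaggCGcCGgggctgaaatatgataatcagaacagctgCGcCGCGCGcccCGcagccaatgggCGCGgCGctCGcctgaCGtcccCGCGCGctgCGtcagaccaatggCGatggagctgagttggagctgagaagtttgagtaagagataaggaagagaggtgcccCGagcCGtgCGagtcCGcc
Krt18: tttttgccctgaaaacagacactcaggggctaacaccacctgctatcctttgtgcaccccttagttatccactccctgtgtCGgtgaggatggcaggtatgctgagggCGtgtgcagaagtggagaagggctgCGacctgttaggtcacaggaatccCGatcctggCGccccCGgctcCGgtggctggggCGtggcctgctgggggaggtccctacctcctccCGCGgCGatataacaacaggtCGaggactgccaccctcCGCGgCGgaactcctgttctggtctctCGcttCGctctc
Krt8: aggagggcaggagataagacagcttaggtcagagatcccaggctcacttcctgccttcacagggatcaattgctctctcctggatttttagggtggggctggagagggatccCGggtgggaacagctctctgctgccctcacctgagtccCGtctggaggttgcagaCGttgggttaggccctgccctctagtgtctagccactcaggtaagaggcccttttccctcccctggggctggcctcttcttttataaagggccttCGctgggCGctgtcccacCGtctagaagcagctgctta
Atoh1: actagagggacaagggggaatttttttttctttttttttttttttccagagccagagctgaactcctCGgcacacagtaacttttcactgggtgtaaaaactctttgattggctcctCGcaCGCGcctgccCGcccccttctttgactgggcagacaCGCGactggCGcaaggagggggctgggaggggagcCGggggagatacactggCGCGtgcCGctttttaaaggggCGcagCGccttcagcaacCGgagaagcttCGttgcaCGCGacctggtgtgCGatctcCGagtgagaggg

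The Isl1 window held 37 CpG, that of Sox2 27, that of Atoh1 20 and that of Krt18 17, against 6 in the Krt8 window and a median of 7 over the 32851 promoter windows of the table. Of all windows, 94.4% had fewer CpG than that of Isl1, 84.5% fewer than that of Sox2, 73.5% fewer than that of Atoh1, 68.6% fewer than that of Krt18 and 43.6% fewer than that of Krt8. The window of Atoh1, for which no difference was detectable, held more CpG than that of Krt18, which rose. Krt20 had 6 CpG in its window, Rab3c 11, and the 2 listed windows of Gfi1 16 and 10. Insm1 and Piezo2 were not matched. Of 3 short motifs searched on both strands, CAGCTG, an E-box of Atoh1-type factors, was in the windows of Isl1, Krt8 and Rab3c and in 16.3% of all windows. ACAAAG, a Sox-type motif, was in those of Sox2 and Krt18 and in 18.7% of all, and TAATGG, a LIM homeodomain motif, was in none of them and in 7.73% of all. These matches describe the letters of the windows and are no evidence of binding.

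The libraries held 31187270, 18951665 and 29651209 counts in K1, K2 and K3 and 26599231, 22699108 and 29193535 counts in C1, C2 and C3. A library without a count of a gene could hold up to 3 counts, which is 0.0975 to 0.154 CPM (counts scaled to library size with TMM factors) in the knockout-labelled and 0.103 to 0.131 CPM in the control-labelled libraries. The targeted gene Ring1 had 1.66, 5.20 and 14.2 CPM in K1, K2 and K3 and 30.9, 17.1 and 3.90 CPM in C1, C2 and C3. In replicate 3, Ring1 was thus higher in K3 than in C3, against the labels, while K3 was still below C1 and C2. Rnf2 did not differ beyond the spread (log2 fold change 0.21 ± 0.20, SE; edgeR adjusted p = 0.575). Which part of it was deleted is not stated, so its counts check no label. Results are therefore also given without replicate 3 of each group. On the first principal component (57.8% of variance) K1, K2 and K3 lay at 73.3, 51.6 and 43.8 and C1, C2 and C3 at -65.9, -48 and -54.8. K1 and C1 stood apart from the rest on the second principal component (19% of variance), at 51.1 and 39.5 with the others at -30.8 to -10.3. The Xist level tells libraries with an inactive X chromosome. It was high in K1 and K2 and low in C1 and C2, with the reverse in replicate 3. The values were 6133, 4736 and 4.48 CPM in K1, K2 and K3 and 10.5, 6.91 and 1757 CPM in C1, C2 and C3. Ddx3y, on the Y chromosome, was at 0.0346, 0.206 and 76.2 CPM in K1, K2 and K3 and 91.2, 102.4 and 59.7 CPM in C1, C2 and C3. C3, the control-labelled library with the lowest Ring1 level, thus held both transcripts at a high level, and whether it is of mixed origin was not tested. Replicates 1 and 2 alone set knockout-labelled libraries high in Xist against control-labelled ones high in Ddx3y. In that subset the label and the pattern of these transcripts cannot be told apart. The basal keratin Krt5 was abundant in every library, at 15665 to 20133 CPM in the knockout-labelled and 18578 to 28244 CPM in the control-labelled ones. Of the 7 basal markers 2 fell by edgeR, the basal regulator Trp63 (log2 fold change -0.79) and the hemidesmosome collagen Col17a1 (-0.74). DESeq2 called 3 lower and limma-voom 2. The basal keratin Krt15 was below the control-labelled range in every knockout-labelled library and did not pass (log2 fold change -1.07; edgeR adjusted p = 0.126; unadjusted p = 0.0223). Of 5 tested hair follicle markers 2 fell, Krt25 and Krt71, keratins of the inner root sheath of the follicle.

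4 of the 10 members rose in the knockout-labelled epidermis, namely Sox2, Isl1, Krt18 and Piezo2. None fell by edgeR, where 0 were lower even before adjustment (p under 0.05), and none by DESeq2 or limma-voom (0 in each). The fit across 14890 tested genes called 10.2% of them in either direction, 7.17% higher and 2.98% lower (edgeR quasi-likelihood test, Benjamini-Hochberg adjusted p under 0.05). Insm1 and Gfi1 were tested and not called, and Atoh1, Krt8, Krt20 and Rab3c did not reach the count minimum in enough libraries to enter the test. Every knockout-labelled library lay above every control-labelled one for 5 members, the 4 called ones and Insm1, a pattern shown by 17.6% of all tested genes. The count filter kept Sox2, Isl1 and Insm1 only because of their counts in the knockout-labelled libraries, so the share of tested members that were called does not stand for the list. The same 4 members were called with replicates 1 and 2 alone, when any 1 library was left out and when Xist was entered as a covariate, the last added once the values were known. In replicates 1 and 2 the label cannot be told apart from the Xist and Ddx3y pattern. Of the called genes 70.6% were higher, and 45.8% when GC content and transcript length entered as an offset, with the same 4 members called. In bulk RNA, more cells of a kind and more RNA per cell cannot be told apart.

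**Figure D1:**
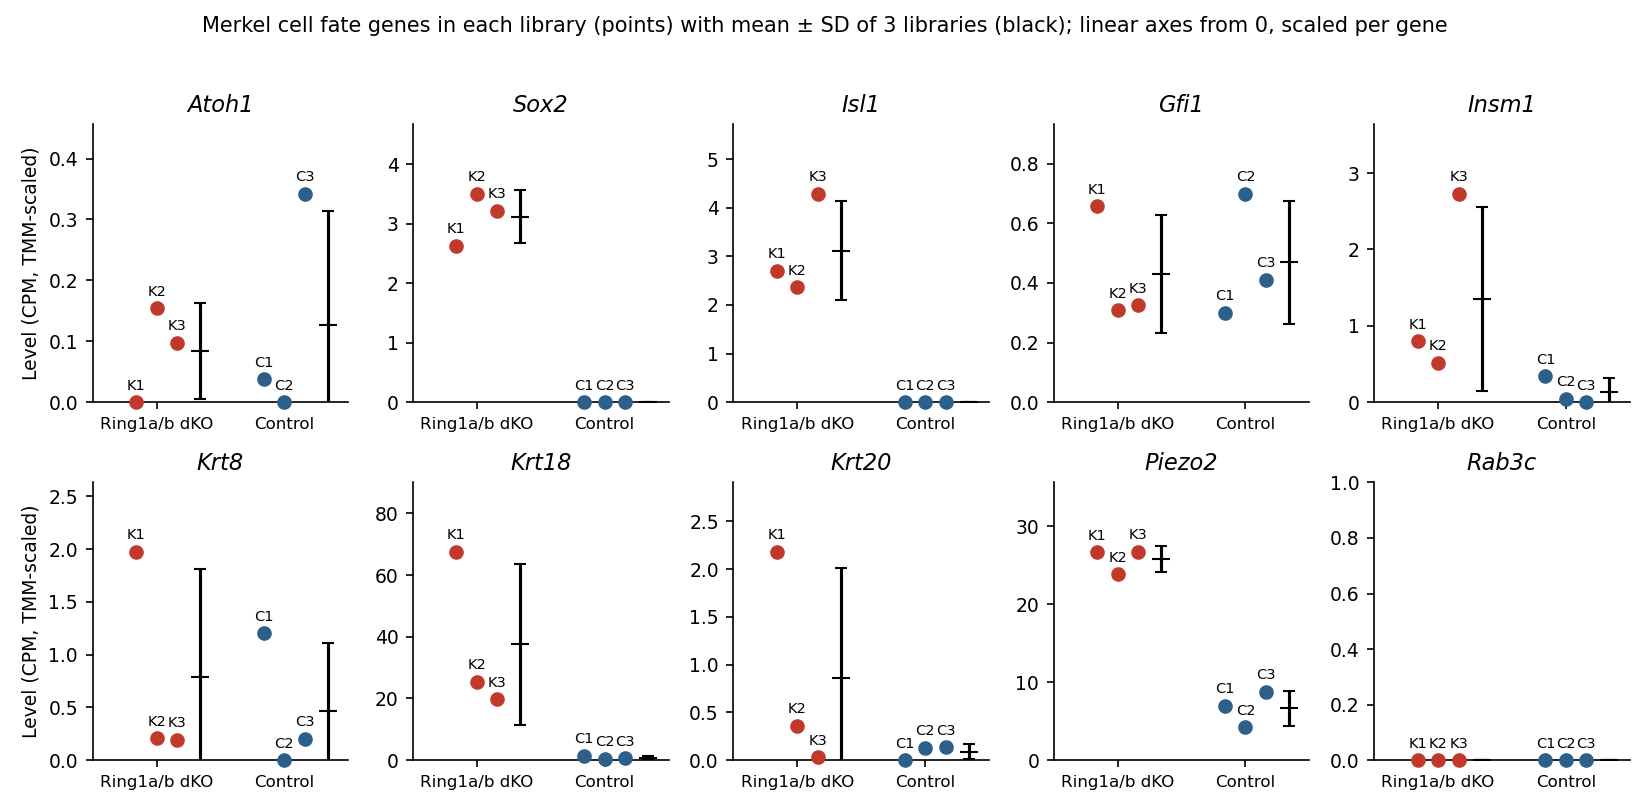
Level of each of the 10 members in CPM (TMM-scaled, linear axis from 0, scaled per gene) in the 3 Ring1a/b dKO libraries (red) and the 3 Control libraries (blue), with mean ± SD in black (bars end at 0 where they would pass it). Sox2, Isl1, Insm1, Krt18 and Piezo2 are higher in every dKO library than in any Control library, Krt8 and Krt20 are led by K1, and Rab3c has no counts.

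Among the transcription factors, Sox2 was counted at a low, even level in the knockout-labelled libraries and not at all in the control-labelled ones. Sox2 (chromosome 3, 34650405 to 34652461, plus strand, GRCm38) had 76, 68 and 99 counts in K1, K2 and K3 and 0 counts in C1, C2 and C3. These are 2.63, 3.50 and 3.22 CPM in K1, K2 and K3, and the 3 values lay close together (3.12 ± 0.444 CPM, SD, n = 3). As an approximate lower bound, the difference was 80.7-fold against a floor of 3 counts over the control-labelled group (edgeR adjusted p = 0.00406). Sox2 lies inside the noncoding gene Sox2ot on the same strand without sharing exonic bases. Sox2ot had 0 counts in the knockout-labelled libraries and 20 over the control-labelled ones, too few for the test.

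Isl1 followed the same pattern. Isl1 (chromosome 13, 116298281 to 116309689, minus strand) had 78, 46 and 132 counts in K1, K2 and K3 and 0 in C1, C2 and C3. At 2.70, 2.37 and 4.29 CPM in K1, K2 and K3, its mean of 3.12 ± 1.03 CPM (SD, n = 3) was close to that of Sox2 but varied more between libraries, with K3 highest. By the same floor, the approximate lower bound for Isl1 was 85.0-fold (edgeR adjusted p = 0.00465). These floors, and the intervals on count ratios given further on, rest on counts summed over the libraries of a group. They cover counting error only and leave out the spread between libraries. The floors also take the knockout-labelled sum without error. No molecular identifiers are named for the libraries, so duplicate reads may make the intervals too narrow.

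Atoh1 had at most 10 counts in any library. Atoh1 (chromosome 6, 64729125 to 64731245, plus strand) had 0, 3 and 3 counts in K1, K2 and K3 and 1, 0 and 10 counts in C1, C2 and C3. Its highest level, 0.342 CPM, was in C3, and the groups overlapped. The ratio of summed counts, knockout-labelled over control-labelled, was 0.543, with a 95% counting interval of 0.165 to 1.603. Without C3 the sums were 6 counts over the knockout-labelled and 1 over the control-labelled libraries, and the interval of the ratio then ran from 0.456 to 173. No difference in Atoh1 was detectable at this depth, in either direction.

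The 2 zinc finger factors of the list that act in neuroendocrine and sensory cells were both rare. Insm1 (chromosome 2, 146221921 to 146225020, plus strand) had 23, 10 and 84 counts in K1, K2 and K3 and 9, 1 and 0 counts in C1, C2 and C3, or 1.35 ± 1.21 against 0.127 ± 0.184 CPM (SD, n = 3 each). K3 alone held 71.8% of the knockout-labelled counts. The log2 fold change of 3.36 ± 1.30 (SE) did not pass (edgeR adjusted p = 0.145; unadjusted p = 0.0280). With replicates 2 and 3 alone, an alternative added once the values were known, Insm1 was called higher (edgeR adjusted p = 0.0266), whereas with replicates 1 and 2 alone it was not (edgeR adjusted p = 0.624). Gfi1, a repressor (minus strand of chromosome 5, 107716657 to 107726036), had 0.658, 0.309 and 0.325 CPM in K1, K2 and K3 and 0.300, 0.699 and 0.410 CPM in C1, C2 and C3. Both groups covered the same range, and its log2 fold change was -0.11 ± 0.81 (SE; edgeR adjusted p = 0.954), an error too wide to show that the groups are alike. Gfi1 shares 101 exonic bases with an antisense transcript, and whether counting used the strand is not stated.

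Of the 3 keratins, Krt18 rose, and the other two did not pass the count filter, with most of their counts in 1 library of a group. Krt18, a type I keratin of simple epithelia (chromosome 15, 102028180 to 102032027, plus strand), had 67.5, 25.4 and 19.8 CPM in K1, K2 and K3 and 1.39, 0.481 and 0.684 CPM in C1, C2 and C3. The lowest knockout-labelled library was thus far above the highest control-labelled one, although K1 was the highest by a wide margin. The log2 fold change was 5.45 ± 0.62 (SE, n = 3 libraries per group; edgeR adjusted p = 0.00156), and it lay between 4.72 and 5.98 when any 1 library was left out. Without K1 the summed counts were 1103 over the knockout-labelled and 68 over the control-labelled libraries.

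Krt8, the type II keratin that forms filaments with keratin 18, had most of its counts in 1 library of each group. Krt8 (chromosome 15, 101996698 to 102004482, minus strand) lies 23.7 kb from Krt18, in the opposite orientation and with no annotated gene between them. It had 57, 4 and 6 counts in K1, K2 and K3 and 32, 0 and 6 counts in C1, C2 and C3. Both groups therefore held 1 library with most of the Krt8 counts, K1 with 85.1% of the knockout-labelled and C1 with 84.2% of the control-labelled sum. The ratio of summed counts was 1.76 (95% counting interval 1.16 to 2.69), but it was 0.413 without K1 and 7.36 without C1. With no count filter, Krt8 had a log2 fold change of 0.75 (edgeR adjusted p = 0.801). Within libraries, the ratio of Krt18 to Krt8 counts was 34.2, 123.5 and 101.5 in K1, K2 and K3 and 1.16 and 3.33 in C1 and C3, while C2 had 11 Krt18 counts and 0 Krt8 counts. Krt8 shares 101 exonic bases with a noncoding gene on the other strand.

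Krt20, the type I keratin most restricted to Merkel cells within skin, was led by 1 library. Krt20 (chromosome 11, 99428403 to 99438150, minus strand) had 63, 7 and 1 counts in K1, K2 and K3 and 0, 3 and 4 counts in C1, C2 and C3. K1 held 88.7% of the knockout-labelled counts. The ratio of summed counts was 10.1 (95% counting interval 4.66 to 26.0), and without K1 it was 1.79 (0.568 to 5.81), so a difference was not detectable without that library. With no count filter the log2 fold change of 3.19 did not pass (edgeR adjusted p = 0.271).

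The touch channel Piezo2 rose and varied little among the knockout-labelled libraries. Piezo2 (minus strand of chromosome 18, 63010213 to 63387183) had 26.7, 23.8 and 26.7 CPM in K1, K2 and K3 and 6.98, 4.24 and 8.76 CPM in C1, C2 and C3. It rose to 25.8 ± 1.67 CPM in the knockout-labelled libraries, against 6.66 ± 2.28 CPM in the control-labelled ones (SD, n = 3 each). That is 1.95 ± 0.31 on the log2 scale (SE; edgeR adjusted p = 0.00584). It was counted in every control-labelled library, with 186, 97 and 256 counts in C1, C2 and C3. Rab3c, a GTPase of secretory vesicles (chromosome 13, 110054187 to 110280996, minus strand), had 0 counts in all 6 libraries.

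**Figure D2:**
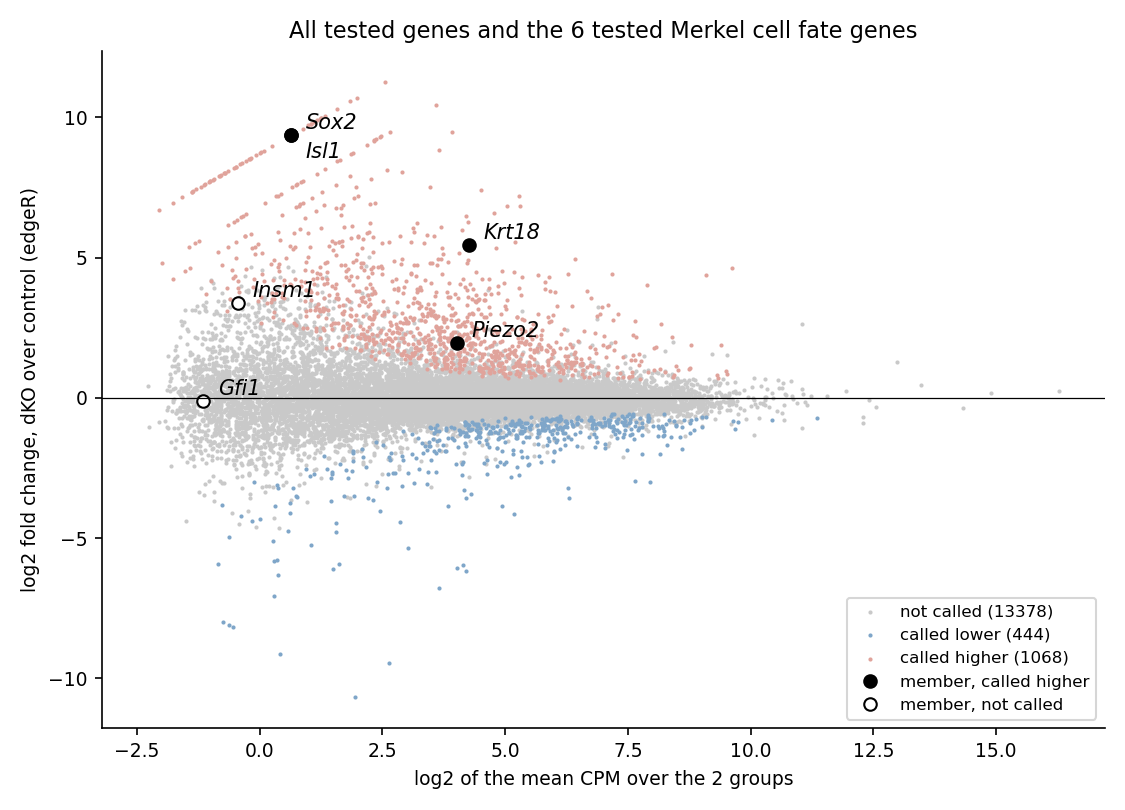
Log2 fold change (dKO over control, edgeR) of every tested gene against the log2 of its mean CPM, with genes called higher in pink (1068), called lower in blue (444) and not called in grey, and the 6 tested members in black (called) or white (not called). Krt18 lies at 5.45 and Piezo2 at 1.95, while Gfi1 lies at -0.11; the heights of Sox2 and Isl1 depend on the fit because the control libraries hold no counts of them.

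Levels per length placed Krt18 first. In CPM per kb of the longest transcript, the mean level in the knockout-labelled libraries was 26.2 for Krt18, 2.40 for Piezo2, 1.51 for Sox2, 1.24 for Isl1, 0.445 for Krt20, 0.434 for Insm1, 0.404 for Krt8, 0.151 for Gfi1 and 0.0396 for Atoh1. In the control-labelled libraries Piezo2 (0.621 CPM per kb) and Krt18 (0.592 CPM per kb) were highest, and every other member was at or below 0.239 CPM per kb. Krt18, and after it Piezo2, lay above all members that follow in every knockout-labelled library. From Sox2 down to Gfi1, the ranges of single libraries overlapped between neighbours in the order, in part through K1, in which Krt20 and Krt8 reached the range of Isl1. The order from Sox2 to Gfi1 is therefore not fully resolved. Sox2 and Isl1 did lie above Insm1, Gfi1 and Atoh1 in every knockout-labelled library, and Gfi1 lay above Atoh1. Krt18 per kb exceeded every other member in each knockout-labelled library.

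**Figure D3:**
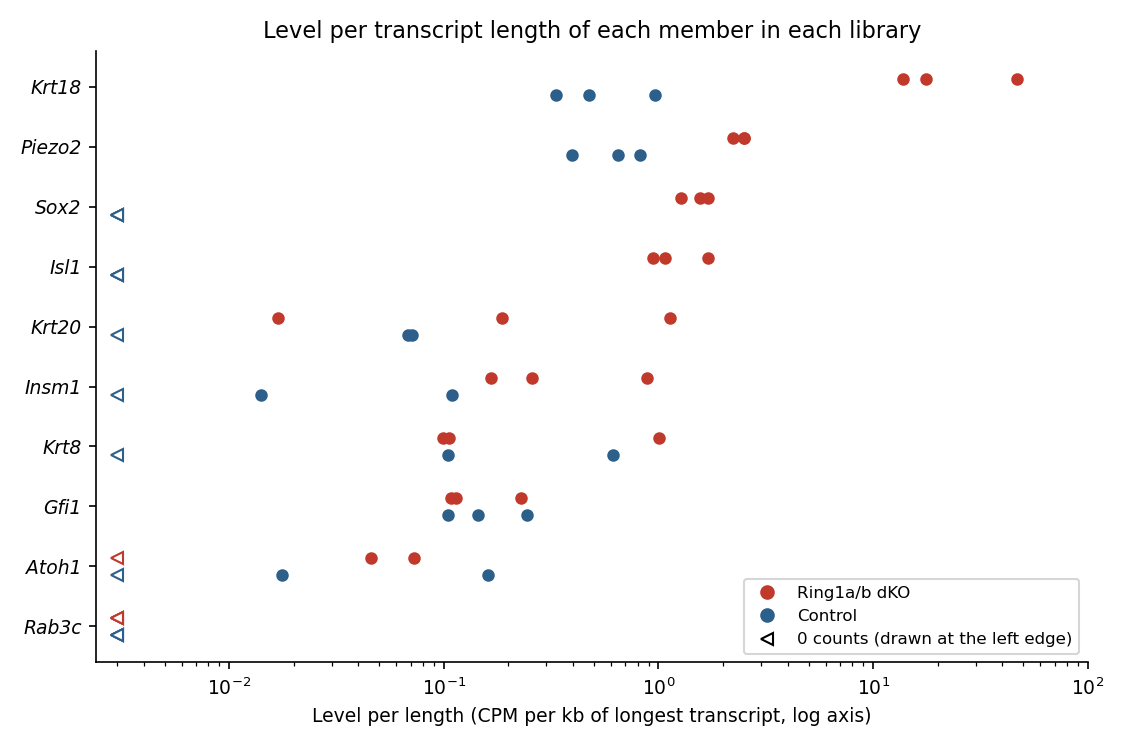
Level of each member per transcript length (CPM per kb, log axis) in each Ring1a/b dKO (red, upper row of each gene) and Control library (blue, lower row), with libraries at 0 counts as open triangles at the left edge. Krt18 stands highest in the dKO libraries, with a mean of 26.2 CPM per kb against 0.592 in the Control libraries, and Sox2 and Isl1 appear in the dKO libraries alone.

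The genes with the profile most like that of each called member were found over the 6 libraries, by the smallest mean absolute difference in log2(CPM + 0.5) relative to the control-labelled mean. Members and predicted or provisionally named genes were left out. For Sox2 these were Fam19a5, which encodes a secreted protein of the nervous system (mean difference 0.0911), the thioesterase Acot7 (0.145) and the neuronal adaptor Shc3 (0.146). For Isl1 they were the zinc finger factor Zic4 (0.116), the calcium-binding protein Tesc (0.132) and again Fam19a5 (0.164). With 0 control counts, the added 0.5 CPM sets the rise of Sox2 and Isl1, so their matches need not lack control counts. Mean levels in the knockout-labelled and control-labelled libraries were 28.1 and 3.45 CPM for Acot7 and 8.56 and 0.736 CPM for Fam19a5. Zic4 had 0 control counts. Krt18 was nearest to Myrf, a factor of myelinating glia (0.185), the cartilage collagen Col2a1 (0.230) and Abcc8, a subunit of a potassium channel (0.280). Piezo2 was nearest to the kinase Prkcb (0.116), the calcium release channel Itpr1 (0.130) and the synaptotagmin Syt9 (0.158).

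Other genes of the Merkel cell were followed in 6 lists of 84 genes. 54 of them were tested, of which 10 were called higher and 5 lower by edgeR, beside 7.17% higher and 2.98% lower among all tested genes. The count filter kept some of the 54, such as Uchl1, only because of their counts in the knockout-labelled libraries. The counts and medians of the lists therefore do not stand for all listed genes. Of 11 further transcription factors, 3 were tested and 1 fell. Sox21, a relative of Sox2, had 33.0, 49.0 and 48.9 CPM in K1, K2 and K3 and 106, 91.1 and 119 CPM in C1, C2 and C3, with every knockout-labelled library below every control-labelled one (log2 fold change -1.27 ± 0.22, SE; edgeR adjusted p = 0.00828). With replicates 1 and 2 alone the log2 fold change was again -1.27 and did not pass with fewer libraries (edgeR adjusted p = 0.0932). Pou4f3, a target of Atoh1 in mouse hair cells that was named after its value was seen, had 1 count over all knockout-labelled and 0 over all control-labelled libraries.

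Regulated secretion, the vesicle release machinery that Merkel cells share with neurons and endocrine cells, gave 5 genes higher and 0 lower by edgeR and by limma-voom, of 17 tested and 25 listed. DESeq2 called 6 higher and 1 lower, the offset for GC and length 5 higher and 1 lower, and edgeR had 8 higher and 1 lower at an unadjusted p under 0.05. The median log2 fold change of the 17 was 0.56, against 0.0004 over all tested genes. Syt7, a calcium sensor of vesicle fusion, had 46.2, 43.4 and 32.5 CPM in K1, K2 and K3 and 2.25, 1.92 and 1.23 CPM in C1, C2 and C3 (log2 fold change 4.50 ± 0.32, SE; edgeR adjusted p = 3.53e-04). Cpe, which trims prohormones in dense-core vesicles, had 71.1, 202 and 174 CPM in K1, K2 and K3 and 4.54, 7.61 and 9.06 CPM in C1, C2 and C3 (edgeR adjusted p = 9.90e-04). Syt13, a synaptotagmin relative, had 17.7, 49.0 and 53.6 CPM in K1, K2 and K3 and 3.94, 4.28 and 2.60 CPM in C1, C2 and C3 (edgeR adjusted p = 0.00253). For none of the 3 genes did the groups overlap, with K1 the lowest knockout-labelled library for Cpe and Syt13 and the highest for Syt7. The other 2 called genes, Rims2 and Rab3b, were named after their values were seen, as were classical markers of secretory vesicles, granules and their release. Of those markers, Syp had 27 counts over the knockout-labelled and 22 over the control-labelled libraries, Chga 23 and 15, Snap25 47 and 45, Chgb 7 and 39, Scg3 20 and 47 and Scg2 0 in both. Pcsk2, a prohormone convertase, was below the control-labelled range in every knockout-labelled library and did not pass (log2 fold change -0.86; edgeR adjusted p = 0.0799; unadjusted p = 0.0107).

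Of 13 neuropeptide and amine genes 3 were tested and none was called by edgeR, with 1 lower at an unadjusted p under 0.05, 1 lower in DESeq2 and 0 in limma-voom. Penk, the gene concerned and the precursor of enkephalins, had 20.9, 15.4 and 19.1 CPM in K1, K2 and K3 and 75.5, 23.7 and 31.4 CPM in C1, C2 and C3 (log2 fold change -1.23 ± 0.41, SE; edgeR adjusted p = 0.0986; unadjusted p = 0.0152), and it was called lower without C2 (edgeR adjusted p = 0.0491). Without C1 the log2 fold change of Penk was -0.58 (edgeR adjusted p = 0.222). Cck, Vip, Tac1, Sst and Tph1, named after their values were seen, had 0 counts in all 6 libraries.

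Of 16 genes of innervation and touch 13 were tested, 4 rose and 1 fell, with a median log2 fold change of 1.47. Kcnma1, the large-conductance calcium-activated potassium channel, had 21.2, 24.0 and 18.8 CPM in K1, K2 and K3 and 1.28, 1.05 and 1.40 CPM in C1, C2 and C3 (log2 fold change 4.09 ± 0.30, SE; edgeR adjusted p = 3.80e-04). Uchl1, the neuroendocrine ubiquitin hydrolase also called PGP9.5, had 215, 67 and 98 counts in K1, K2 and K3 and 0, 4 and 1 counts in C1, C2 and C3 (edgeR adjusted p = 0.00692). Cacna1b, an N-type calcium channel subunit, had 11.7, 6.38 and 4.55 CPM in K1, K2 and K3 and 0.0375, 0.699 and 0.0342 CPM in C1, C2 and C3 (edgeR adjusted p = 0.0197). Its call was lost without K1, K2, C1 or C3 (edgeR adjusted p = 0.0516 to 0.0554), and that of Uchl1 with replicates 1 and 2 alone, at a log2 fold change of 5.93 against 6.06 in all libraries (edgeR adjusted p = 0.0618). The groups did not overlap for any of these 3 genes. Cacna1d, also called higher, was named after its value was seen. The 4 higher genes became 2 without K2 or C3 and 1 with replicates 1 and 2 alone, which left Kcnma1.

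Of the signals that act upstream of Merkel cell formation 14 genes were tested, of which 3 fell and 1 rose, with a median log2 fold change of -0.48. Edaradd, the adaptor of the ectodysplasin receptor, had 77.4, 111 and 101 CPM in K1, K2 and K3 and 240, 185 and 241 CPM in C1, C2 and C3 (log2 fold change -1.20 ± 0.20, SE; edgeR adjusted p = 0.00745). Fgfr2, a receptor of fibroblast growth factors, had 496, 583 and 672 CPM in K1, K2 and K3 and 1062, 971 and 1037 CPM in C1, C2 and C3 (edgeR adjusted p = 0.0211). Notch1, a Notch receptor, had 1080, 845 and 921 CPM in K1, K2 and K3 and 582, 499 and 494 CPM in C1, C2 and C3 (edgeR adjusted p = 0.0166). Jag1, a Notch ligand named after its value was seen, was the third lower gene. Calls were lost for Fgfr2 without K2, C2 or C3 (edgeR adjusted p = 0.0608 to 0.0872) and for Notch1 without C2 or C3 (edgeR adjusted p = 0.0749 to 0.0830), and Notch1 was not called when GC content and transcript length entered as an offset (log2 fold change 0.11; edgeR adjusted p = 0.665). The 3 lower genes became 6 without K1, 2 without K3, C1 or C2, 1 without K2 or C3 and 0 with replicates 1 and 2 alone.

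Among 4 other simple epithelial keratins, all tested, none was called by edgeR, 1 was higher by both DESeq2 and limma-voom, and 1 had an unadjusted p under 0.05. Krt7, a type II keratin, had 121, 233 and 255 CPM in K1, K2 and K3 and 7.13, 69.6 and 11.5 CPM in C1, C2 and C3. Every knockout-labelled library was above every control-labelled one, but C2 was much higher than C1 and C3, and the log2 fold change of 2.79 ± 0.79 (SE) did not pass (edgeR adjusted p = 0.0587). Krt7 was called without C2 (edgeR adjusted p = 0.00196), with replicates 2 and 3 alone (0.0310) and with no count filter (0.0173). With replicates 1 and 2 alone it was not (log2 fold change 2.203; edgeR adjusted p = 0.271).

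**Figure D4:**
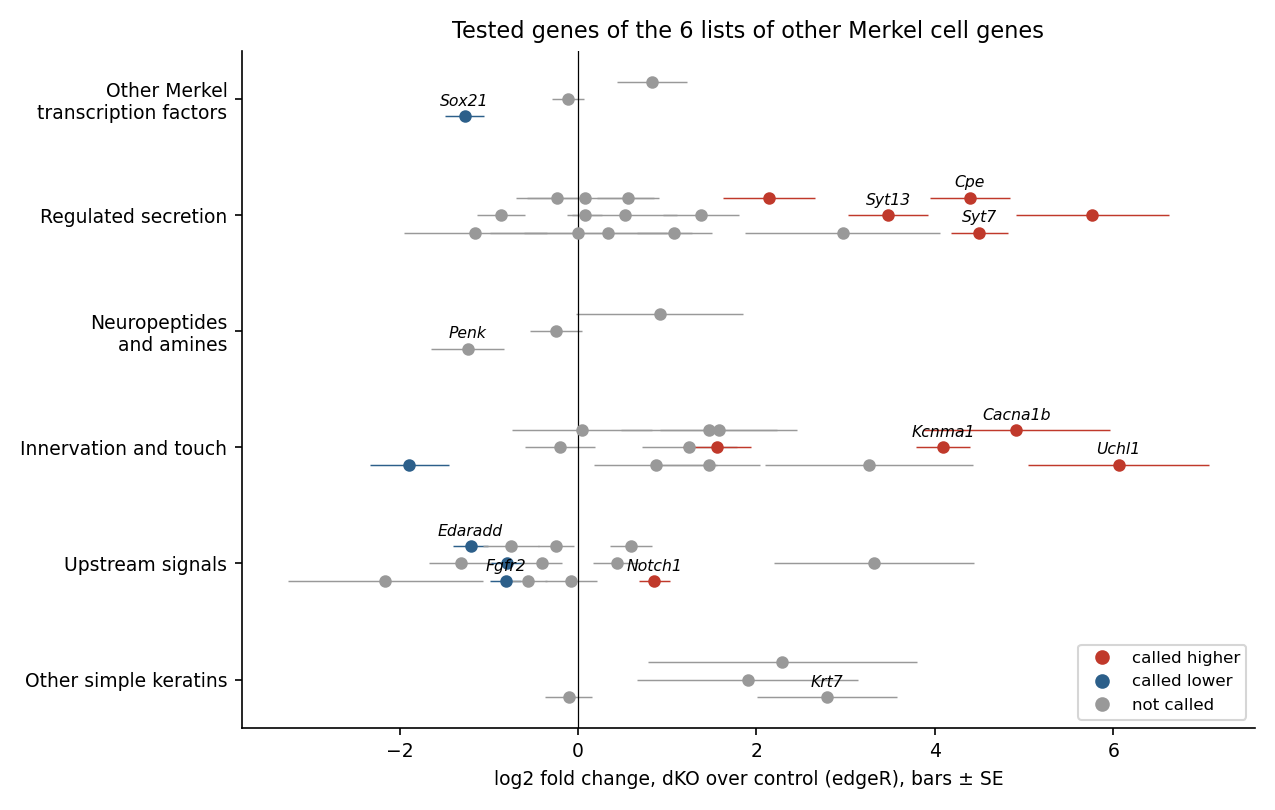
Log2 fold changes (dKO over control, edgeR, bars ± SE) of the tested genes in the 6 lists of other Merkel cell genes, coloured by call (red higher, blue lower, grey not called), with the genes named by rule labelled. The called genes of regulated secretion lie to the right of 0 and those of the upstream signals mostly to the left.

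Of 7 periderm markers, genes of the outer embryonic layer that are also used in wounding and in other epithelia, 3 were called higher by edgeR, Krt6a, Cldn6 and Grhl3, and 4 by DESeq2 and by limma-voom. Krt17 and Cldn4 were also above the control-labelled range in every knockout-labelled library, while the keratins Krt4 and Krt13 overlapped between groups. The summed level of the 7 markers was 2237 to 3017 CPM in the knockout-labelled and 408 to 827 CPM in the control-labelled libraries, with Krt4 and Krt13 at 0 to 1.56 CPM in the knockout-labelled and 0.0750 to 0.830 CPM in the control-labelled ones. Periderm can express Krt8 and Krt18, and its part in the Krt18 result was not tested. Of 8 markers of Schwann cells and neurons 5 were tested and 1, the neuronal tubulin Tubb3, was called higher by edgeR and DESeq2 and none by limma-voom (0). Tubb3 had 1.42, 8.44 and 6.66 CPM in K1, K2 and K3 and 0.113, 0.131 and 0.171 CPM in C1, C2 and C3. The sum, mostly Mbp, was 37.6 to 59.0 CPM in the knockout-labelled and 34.6 to 40.4 CPM in the control-labelled libraries. No marker of melanocytes was called by edgeR among 5 tested of 7, with 3 higher at an unadjusted p under 0.05, 2 called higher by DESeq2 and 0 by limma-voom. The melanocyte markers summed to 14.1 to 29.3 CPM in the knockout-labelled and 11.5 to 13.9 CPM in the control-labelled libraries. The 10 members themselves summed to 56.7 to 105 CPM in the knockout-labelled and 5.59 to 10.5 CPM in the control-labelled libraries, with Rab3c at 0 throughout. Cell type markers outside the members were named after their values were seen.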

How the data were processed

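The authors deposited 1 file of raw read counts per gene symbol for each of 6 libraries. Per the labels' protocols, total RNA was amplified with a Nugen Ovation kit and sequenced as single reads. Per the submitters' processing notes, the build was mm10, and the tools named were HTSeq 0.6.1, DESeq2 1.6.3, TopHat2 2.0.13 and Cufflinks 2.2.1. The annotation and the strand of counting are not stated, and overlapping and antisense genes may share reads.

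Groups were taken from the sample titles. All genes were fitted together with edgeR 4.0.16 in R 4.3.3 (TMM, filterByExpr at 10 counts, total at least 15, two-sided quasi-likelihood F test, no covariate; Benjamini-Hochberg adjusted p under 0.05). ± is the SD for CPM and the SE for log2 fold changes. With 0 counts in a group the fold is an approximate bound against 3 counts over the group, with the sum of the other group taken without error. Alternatives used DESeq2 1.42.0, limma 3.58.1 and other scalings, filters and subsets. A few genes of the lists are not reported here. The members and lists were chosen with earlier results of these data known. Genes named are the members, the targeted genes, the called genes of each list, up to 3, by smallest p (or the gene of highest mean where none was called), and the 3 nearest profiles of each called member. Positions and transcript lengths are from GENCODE M21 (GRCm38), and promoter sequences from RefSeq (GRCm38.p6). No pair of libraries was a copy, as chi-square per degree of freedom was at least 30.1.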

Additional observations from a re-analysis of the deposited data

How the results depend on the processing

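The count of called genes, 1512 in all, was 2535 with DESeq2 as the tool, 568 with a 2-fold minimum, 439 with replicates 1 and 2 alone, 816 with the Xist level as a covariate and 2694 with replicates 2 and 3 alone, the last 2 chosen after the data were seen. Leaving out 1 library gave 811 to 1393. When GC content and transcript length entered as an offset, 45.8% of the called genes were higher, against 70.6% without it, and the median over all tested genes was then -0.15 on the log2 scale. Among the members, 4 were called higher and 0 lower when any 1 library was left out, and the called 4 were the same genes. Sox2, Krt18 and Piezo2 were called in all 19 alternatives, with Piezo2 at 1.55 on the log2 scale under the offset. Isl1 was called in the 18 in which it was tested, since a minimum of 50 counts in 3 libraries removed it and left 3 members called. Insm1 was called with replicates 2 and 3 alone. The sign of Gfi1 turned when 1 library was left out (-0.55 to 0.28), never past the threshold. Same-numbered libraries deviated together weakly (r = 0.19, 0.26 and 0.08 for numbers 1, 2 and 3, every library nearest to its own number). The labels do not say what the numbers mark, so the replicate block was used as an alternative only. With the block 1451 genes and 4 members were called. It gave 6 lower upstream signals against 3 without it, 0 lower innervation genes against 1 and 6 higher secretion genes against 5. Krt7 was called with the block (edgeR adjusted p = 0.0122). Atoh1 and Rab3c had 0 to 11 counts per group, too few for the test at this depth, whereas Krt8 and Krt20 had most of their counts in 1 library. Why Atoh1 and Rab3c had so few counts was not tested.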

Other observations

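Piezo1 and Ncam1 stood high in replicate 1 of a group, the libraries that were set apart on the second principal component, and are given here as values chosen after they were seen. Piezo1, the relative of Piezo2 in epithelia, had 502, 121 and 110 CPM in K1, K2 and K3 and 114, 96.8 and 98.4 CPM in C1, C2 and C3. Its log2 fold change of 1.25 ± 0.53 (SE) did not pass (edgeR adjusted p = 0.191). The neural adhesion molecule Ncam1 had 175, 100.2 and 88.1 CPM in K1, K2 and K3 and 89.9, 16.5 and 15.2 CPM in C1, C2 and C3 (edgeR adjusted p = 0.182). K1 was the highest knockout-labelled library for both genes, as it was for Krt8, Krt18 and Krt20, and C1 the highest control-labelled one for both, as for Krt8 and Krt18.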
